A study of Rattus norvegicus with 160 samples.

Results

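The line difference described here is that between HR and LR rat pups in the hippocampus at postnatal day 14 (P14), each pup raised by its own mother. The arrays were chosen by their titles: 5 HR and 5 LR hippocampal arrays of P14, 10 of the 160 arrays in the series. HR and LR are lines of Sprague-Dawley rats bred selectively as high and low responders to unfamiliar surroundings, and all animals sampled were male. HR pups were of the HR line with an HR mother. LR-HR pups were born to the LR line and fostered to an HR dam, LR-LR pups were born to the LR line and fostered to another LR dam, and LR pups were of the LR line with their own LR mother. The 5 LR-HR and 5 LR-LR arrays of P14 entered the fit, so that 20 arrays shared 1 estimate of the spread. The series sampled hippocampus and amygdala at P07, P14, P21 and in adults (postnatal day 75).

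In rats P14 falls in the weeks when granule neurons are still being added to the dentate gyrus, synapses form quickly and the pup still depends on the dam. Transcription factors of the basic helix-loop-helix class, such as Neurod1, drive granule neurons to differentiate in the rodent dentate gyrus. Growth factors such as Bdnf, the corticosteroid receptors and the serotonin receptor Htr1a are much studied in the hippocampus because they bear on stress reactivity.

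Most of what rose in HR pups was predicted transcripts with no match in the RefSeq gene table, while most named genes that passed the test were lower in HR pups. Of 25897 transcripts tested, 716 (2.76%) differed between HR and LR at an adjusted p under 0.05 (limma, Benjamini-Hochberg over all transcripts). Of these, 507 (1.96%) were higher and 209 (0.807%) were lower in HR. The number of falls rested on single arrays: it was 694 (2.68%) without HR array 5 and 79 without LR array 5, while the rises numbered 612 (2.36%) and 390 without the same arrays, the first setting giving 5.04% in all. No source used here names the litters, and the p-values therefore rest on the scatter among arrays alone, which may be partly technical. The HR and LR arrays did not overlap for 3.83% of all transcripts.

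Array medians ran from 119 to 129 intensity units in HR and from 120 to 130 in LR. A random control sequence, which stands for background, had a log2 intensity of 5.75 to 5.98 on HR arrays and 5.81 to 6.0 on LR arrays. HR array 5 correlated with the other HR arrays at a mean r of 0.873 across transcripts, the lowest such value among the 20 arrays, and its nearest array was LR-HR array 5 (r = 0.935). The array nearest to each of the 5 HR arrays lay in another group, and for HR arrays 1, 2, 3 and 5 it carried the same number. Other groups had such arrays too: those nearest to LR arrays 1, 2 and 3 were LR-HR arrays 1, 2 and 3. Of 20 hippocampal neuron markers 11 were measured, and their mean log2 level was 8.96 to 9.85 on HR arrays and 9.33 to 9.71 on LR arrays. Camk2a, a kinase of excitatory synapses, averaged 11.04 ± 0.31 in HR and 10.86 ± 0.14 in LR (SD, n = 5 each), far above the random control in both. Of 14 measured markers of choroid plexus, which can be carried along with dissected hippocampus, 2 averaged at or below the random control. Ttr averaged 6.54 ± 0.53 in HR and 6.67 ± 0.52 in LR. Others were higher, such as Igf2 (8.23 ± 0.46 in HR, 8.76 ± 0.58 in LR) and Sostdc1 (7.88 ± 0.75 and 7.72 ± 0.28). The mean of the 14 genes was 6.55 to 6.91 on HR arrays and 6.60 to 6.92 on LR arrays. Whether choroid plexus was carried along was not tested.

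The named genes with the clearest common rise were those of the Spetex2 family, a cluster of near-copies on rat chromosome 15 known from testis. As near-copies the members may share array signal, and the probe sequences were not used here. All 7 members matched on the array had a promoter in the RefSeq table (build GRCr8, 250 bases before to 50 after the start). Over the 21 pairs of members, 94.9% to 99.3% of aligned promoter bases were identical. The promoters of 3 members are shown because they differ in 1 motif: Spetex2c and Spetex2b rose in HR pups, and Spetex2h did not pass the test. Capitals mark TGACGTCA, the palindromic cyclic AMP response element.
Spetex2c, chr15:5326333-5326632, minus strand: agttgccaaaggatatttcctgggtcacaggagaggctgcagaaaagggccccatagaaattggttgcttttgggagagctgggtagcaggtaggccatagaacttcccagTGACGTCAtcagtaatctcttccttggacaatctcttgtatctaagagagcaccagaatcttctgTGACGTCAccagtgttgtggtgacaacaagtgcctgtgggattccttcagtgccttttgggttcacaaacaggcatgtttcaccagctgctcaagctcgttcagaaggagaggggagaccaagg
Spetex2h, chr15:5542970-5543269, minus strand: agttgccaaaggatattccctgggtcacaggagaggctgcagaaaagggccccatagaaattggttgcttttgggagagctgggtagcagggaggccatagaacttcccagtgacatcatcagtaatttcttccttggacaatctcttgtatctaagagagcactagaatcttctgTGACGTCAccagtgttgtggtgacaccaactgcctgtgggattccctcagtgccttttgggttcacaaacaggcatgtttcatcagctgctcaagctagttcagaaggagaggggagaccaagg
Spetex2b, chr15:5810076-5810375, minus strand: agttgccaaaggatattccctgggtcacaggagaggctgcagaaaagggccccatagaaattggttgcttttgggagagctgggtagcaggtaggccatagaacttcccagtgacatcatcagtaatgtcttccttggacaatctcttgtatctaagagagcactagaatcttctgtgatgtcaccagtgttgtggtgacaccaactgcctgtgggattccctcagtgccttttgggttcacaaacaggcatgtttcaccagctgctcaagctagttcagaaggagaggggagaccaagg
Spetex2c holds the motif 2 times, at bases 112 and 177 counted from the 5′ end of the window, Spetex2h holds it 1 time at base 177, and Spetex2b does not hold it. Of the 7 windows only that of Spetex2b lacks the motif. Among the members not shown, Spetex2e holds it 2 times, and Spetex2d, Spetex2f and Spetex2g hold it 1 time each. Whether the motif bears on the rise was not tested. The same letters occur in 1.83% of the 33469 rat promoters of this length, the motif being its own reverse complement. None of the 7 windows held TATAAA on either strand, which 14.2% of all promoters hold.

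Of the 7 Spetex2 genes 6 rose in HR pups, beside 0.21% of all transcripts with a matched gene and 1.96% of all transcripts. The family was chosen for description after its values were seen, so nothing is read from that count. Spetex2c had log2 intensities of 8.68, 7.52, 8.38, 9.27 and 8.84 on HR arrays 1 to 5, against 7.44, 6.53, 6.49, 6.58 and 7.29 on LR arrays 1 to 5. Every HR array lay above every LR array, and the difference was 1.67 ± 0.29 (log2, SE; adjusted p = 0.000895 by limma). A log2 difference of 1 is a factor of 2. Spetex2g had 8.68, 8.27, 8.54, 8.43 and 8.12 on the HR arrays, against 7.26, 7.09, 7.35, 6.39 and 6.35 on the LR arrays, a difference of 1.52 ± 0.26 (adjusted p = 0.000789 by limma). Spetex2b, whose promoter window lacks the motif, had 8.19, 7.59, 8.24, 7.53 and 8.05 in HR, against 6.49, 5.98, 7.11, 6.71 and 5.94 in LR, a difference of 1.47 ± 0.29 (adjusted p = 0.00268 by limma). The groups did not overlap for either gene. Spetex2e differed by 1.34 ± 0.31 with no overlap (adjusted p = 0.015). Spetex2f and Spetex2d differed by 1.29 ± 0.28 and 1.12 ± 0.23 (limma, adjusted p = 0.00744 and 0.00443), and for both the lowest HR array lay below the highest LR array. Spetex2h averaged 8.59 ± 0.15 in HR and 7.92 ± 0.40 in LR (SD, n = 5 each) and did not pass the test, at 0.68 ± 0.22 (limma, adjusted p = 0.11), although its arrays did not overlap.

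**Figure D1:**
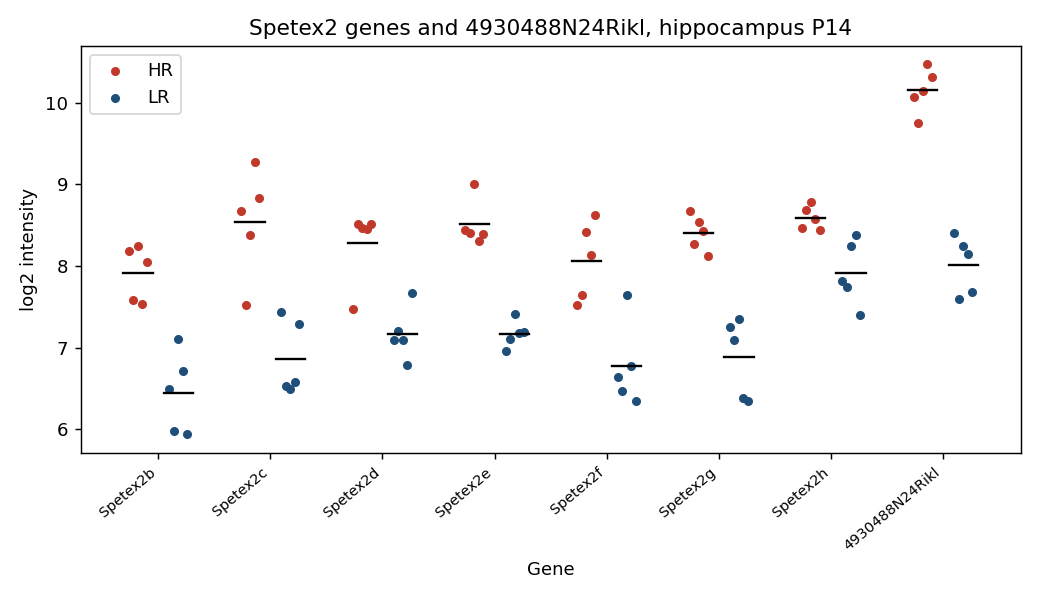
Log2 intensity of the 7 Spetex2 genes and 4930488N24Rikl on each P14 hippocampal array, HR (red) left of LR (blue); points are arrays and bars are means of 5. Arrays of HR and LR overlap for Spetex2d and Spetex2f and for no other gene plotted.

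The largest difference among named genes was that of 4930488N24Rikl, an uncharacterised gene on chromosome 1. It measured 10.07, 9.75, 10.15, 10.47 and 10.32 on the HR arrays, against 8.41, 7.60, 8.25, 8.15 and 7.68 on the LR arrays. The highest LR array thus stayed well below the lowest HR array, and the difference was 2.13 ± 0.23 (log2, SE; limma, adjusted p = 1.9e-06). Both fostered LR groups lay between, at 8.99 ± 0.37 in LR-HR and 9.32 ± 0.21 in LR-LR (SD, n = 5 each).

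Other named genes that rose came from several families. S100a9, a calcium-binding protein of neutrophils and inflamed tissue, had 7.80, 7.97, 7.82, 8.15 and 7.36 in HR, against 6.21, 6.87, 6.75, 5.95 and 6.17 in LR, a difference of 1.43 ± 0.28 (limma, adjusted p = 0.0025). Its usual partner S100a8 was at background in both groups, 5.56 ± 0.30 in HR and 5.62 ± 0.27 in LR, and was not called (limma, adjusted p = 0.944). Of the 9 measured blood cell markers S100a9 was the 1 called, beside 1.29% of all matched genes. The mean level of the list was 9.44 to 9.63 on HR arrays and 9.40 to 9.60 on LR arrays. Phf1, which joins the Polycomb repressive complex to chromatin, measured 9.15, 8.44, 8.03, 8.60 and 7.95 in HR, against 7.17, 7.40, 7.73, 7.11 and 6.95 in LR, and differed by 1.16 ± 0.27 (limma, adjusted p = 0.0141). Dpyd, which starts the breakdown of pyrimidines, averaged 7.24 ± 0.66 in HR and 5.97 ± 0.29 in LR, where 2 of 5 arrays exceeded their own random control, and differed by 1.27 ± 0.30 (limma, adjusted p = 0.0183). Chemosensory receptor genes were among the rises as well. Or10al6, an olfactory receptor, differed by 1.40 ± 0.34 (adjusted p = 0.0196), and HR array 1 stood at 9.19 while the other HR arrays were at 7.58 to 7.78. Vom1r27, a vomeronasal receptor, differed by 1.17 ± 0.29 (adjusted p = 0.0277).

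Named genes made up a small part of the rises. Among 9505 transcripts matched to a gene, 121 (1.27%) were called, 20 (0.21%) higher and 101 (1.06%) lower in HR. Without HR array 5 these numbers were 43 and 385, and the 385 held all of the 101. Of the 16033 transcripts with a predicted (XM) identifier, 482 (3.01%) were higher and 105 (0.655%) lower. The largest change of all was in an unmatched transcript, XM_346138, which measured 9.69, 9.75, 9.64, 9.75 and 9.59 on the HR arrays, against 6.60, 6.60, 7.98, 6.57 and 7.54 on the LR arrays. The HR arrays spanned little and stood apart from LR by 2.63 ± 0.41 (log2, SE; limma, adjusted p = 0.000184). XM_001065901 was as well separated, at 8.96, 8.54, 8.51, 9.05 and 8.92 in HR, against 6.41, 6.11, 6.61, 5.92 and 6.19 in LR (difference 2.55 ± 0.24; limma, adjusted p = 8.78e-07).

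Differences also varied with level. The median difference over all transcripts was -0.01 log2, and with transcripts split by mean level into 10 equal bins it ran from 0.05 in the lowest bin to -0.17 in the highest, which held transcripts above a log2 intensity of 9.53. Highly expressed genes as a body therefore sat slightly below 0 in HR, and lists of such genes are read against that value below.

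**Figure D2:**
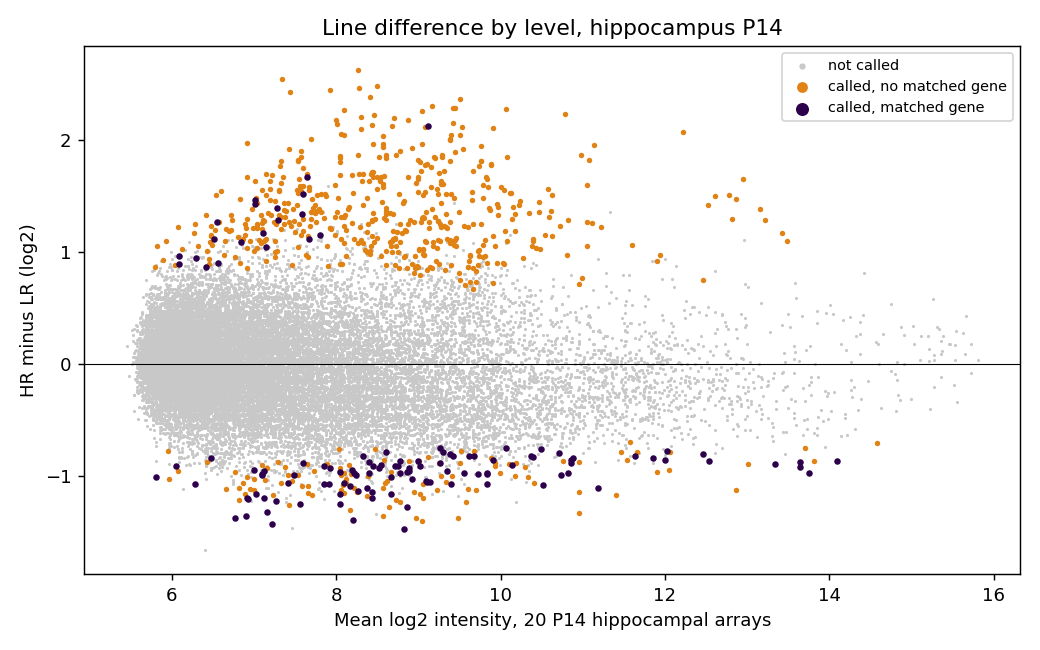
HR minus LR (log2) against the mean log2 intensity over the 20 P14 hippocampal arrays, 1 point per transcript; called transcripts with a matched gene are dark and those with none are orange. Most points above 0 that were called are orange, 487 of the 507 rises, whereas 101 of the 209 falls are dark.

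Among called genes that were lower in HR and whose arrays did not overlap, Brd8, Zeb2, Tcf12 and Neurod1, which encode nuclear regulators of transcription, were within the 10 largest falls. Such regulators were not counted as a list. Neurod1, which drives differentiation of dentate granule neurons, measured 7.52, 7.60, 7.79, 7.74 and 7.54 on the HR arrays, against 8.74, 8.77, 8.93, 8.64 and 8.83 on the LR arrays. Both groups were tight, with no overlap, and the difference was -1.14 ± 0.21 (log2, SE; limma, adjusted p = 0.00164). LR-HR and LR-LR pups, at 8.67 ± 0.39 and 8.62 ± 0.31 (SD, n = 5 each), had levels near that of LR. Of the 11 measured hippocampal neuron markers Neurod1 was the 1 called, beside 1.29% of all matched genes. The other way, 7 of the 11 had a positive difference, and the median of the list was 0.10. Zeb2, a zinc finger repressor that acts in neural crest and interneuron development, had 7.64, 8.03, 8.10, 8.03 and 8.70 in HR, against 9.14, 9.26, 9.51, 9.50 and 9.45 in LR. The difference was -1.27 ± 0.21 (limma, adjusted p = 0.000474). Tcf12, a helix-loop-helix partner of factors such as Neurod1, measured 6.86, 6.80, 8.15, 6.87 and 7.76 in HR, against 8.52, 8.18, 9.07, 8.17 and 8.76 in LR, and fell by 1.25 on the log2 scale (SE 0.32; limma, adjusted p = 0.0337). Its groups were separated by a narrow gap, HR array 3 lying just under the lowest LR array. Brd8, a bromodomain subunit of a histone acetyltransferase complex, had 6.58, 5.74, 5.75, 5.80 and 6.60 in HR, where 2 of 5 arrays exceeded their own random control, against 7.60, 7.17, 7.76, 7.57 and 7.20 in LR (difference -1.37 ± 0.25; limma, adjusted p = 0.00125). Dnmt1, the maintenance DNA methyltransferase, averaged 8.63 ± 0.60 in HR and 9.68 ± 0.16 in LR (SD, n = 5 each) and passed the test narrowly, at -1.05 ± 0.29 (limma, adjusted p = 0.0493). Of the 10 measured genes for DNA methylation and histone modification, Dnmt1 was the 1 called, beside 1.29% of all matched genes.

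Of genes for protein synthesis, folding and turnover, 0 of 64 cytosolic ribosomal protein genes, 1 of 27 chaperone genes and 1 of 21 proteasome genes were called. Both of the calls were lower in HR, as were 1.08% of all matched genes. Psma5, a subunit of the 20S proteasome core, had 8.64, 8.71, 8.84, 9.34 and 9.47 in HR, against 9.67, 9.71, 9.82, 9.78 and 9.80 in LR (difference -0.75 ± 0.20; limma, adjusted p = 0.0367). The LR arrays were close together and all HR arrays were below them. Eif2b5, named for the size of its fall and the catalytic subunit of the exchange factor that recharges eIF2 for translation, averaged 6.60 ± 0.47 in HR and 7.82 ± 0.54 in LR and differed by -1.22 ± 0.29 (adjusted p = 0.0196). Hspa5, the chaperone of the endoplasmic reticulum, averaged 10.18 ± 0.50 in HR and 11.17 ± 0.12 in LR (SD, n = 5 each). HR array 5 came closest to the LR arrays, without reaching them, and the difference was -0.99 ± 0.25 (limma, adjusted p = 0.0272).

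The next 4 genes encode mitochondrial proteins, which were not counted as a list of their own. Tfb2m and Mtg2 were named for the size of their falls, Uqcrfs1 was the 1 of 37 respiratory chain genes called, and Prdx3 was the 1 of 28 called in the glutathione and detoxification list. Over all matched genes 1.08% were called lower. Tfb2m, a mitochondrial transcription factor, had 5.81, 6.58, 6.21, 6.79 and 6.71 in HR, against 8.17, 8.80, 6.80, 7.41 and 7.52 in LR, a difference of -1.32 ± 0.35 (limma, adjusted p = 0.0367). HR array 4 nearly reached LR array 3, so that the groups barely separated. Mtg2, a GTPase of the mitochondrial ribosome, averaged 7.71 ± 0.54 in HR and 8.84 ± 0.36 in LR (SD, n = 5 each) and differed by -1.13 ± 0.25 (limma, adjusted p = 0.00878). Uqcrfs1, the Rieske iron-sulphur subunit of complex III, measured 9.61, 10.06, 10.26, 9.51 and 10.74 in HR, against 10.96, 10.84, 10.98, 11.44 and 11.34 in LR (difference -1.08 ± 0.24; limma, adjusted p = 0.011). Prdx3, the mitochondrial peroxiredoxin, measured 7.45, 7.97, 8.0, 7.87 and 7.68 in HR, against 8.58, 8.46, 8.92, 8.84 and 8.73 in LR. Its groups were well apart, at -0.91 ± 0.19 (limma, adjusted p = 0.00658). Nit2, an omega-amidase, and Tnfsf13, the cytokine APRIL, were also among the 10 largest falls without overlap, at -1.19 ± 0.27 and -1.16 ± 0.31 (limma, adjusted p = 0.0117 and 0.0437).

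Synaptic, growth and cell cycle genes contributed single members. Bdnf, the neurotrophin that supports synaptic plasticity, had 7.54, 8.44, 8.53, 8.45 and 8.44 on the HR arrays, against 9.17, 8.71, 9.23, 9.04 and 9.82 on the LR arrays. All HR arrays lay below all LR arrays, HR array 1 furthest, and the difference was -0.91 ± 0.24 (limma, adjusted p = 0.0392). LR-HR pups averaged 9.06 ± 0.08 and LR-LR pups 8.34 ± 0.39. Napa, which recycles SNARE complexes after vesicle fusion, averaged 8.62 ± 0.42 in HR and 9.66 ± 0.27 in LR and differed by -1.04 ± 0.28 (adjusted p = 0.0394). Ccnd2, the D-type cyclin of neural progenitors, averaged 10.20 ± 0.42 in HR and 10.97 ± 0.12 in LR and differed by -0.76 ± 0.21 (adjusted p = 0.0479). Apln, which encodes the peptide apelin, differed by -0.91 ± 0.25 with overlapping arrays (adjusted p = 0.0479). Of 31 alternative settings, 19 ended the call for Ccnd2, 18 for Apln, 16 for Dnmt1, 13 each for Bdnf and Tnfsf13, 10 for Psma5 and 9 each for Napa and Tfb2m. For Tcf12 and Hspa5 it was 7 settings each, and for every other called gene with a symbol given above 5 or fewer. The highest adjusted p under any of these settings was 0.167, for Ccnd2 (limma).

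**Figure D3:**
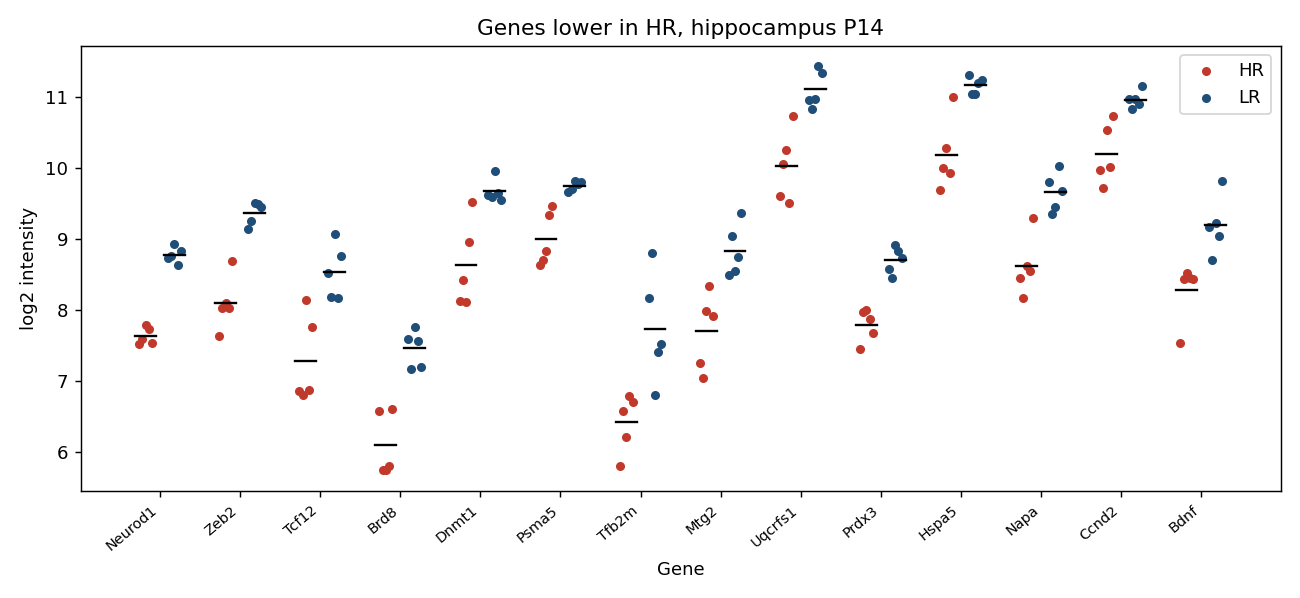
Log2 intensity of 14 called genes that were lower in HR, on each P14 hippocampal array, HR (red) left of LR (blue); points are arrays and bars are means of 5. For every gene plotted all HR points lie below all LR points, and Neurod1 has the tightest HR points.

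Of the 8 genes singled out for their role in stress, mood and growth, Mki67 had no matched transcript and Bdnf was the 1 called. Nr3c1, the glucocorticoid receptor, was near background in both groups, at 5.74 ± 0.22 in HR and 6.07 ± 0.53 in LR (SD, n = 5 each), so its difference of -0.34 ± 0.27 carries little information (limma, adjusted p = 0.627). Nr3c2, the mineralocorticoid receptor, averaged 6.76 ± 0.39 in HR and 6.44 ± 0.27 in LR, a difference of 0.31 ± 0.27 (limma, adjusted p = 0.653). Crhr1, a receptor for corticotropin-releasing hormone, and Htr1a, a serotonin receptor, differed by 0.01 ± 0.27 and -0.01 ± 0.30. Bmp4, a morphogen that holds neural stem cells quiescent, averaged 7.13 ± 0.41 in HR and 7.87 ± 0.34 in LR and was not called, at -0.74 ± 0.31 (limma, adjusted p = 0.257). Fgf2, a growth factor of neural progenitors, varied widely: it measured 10.78, 9.58, 9.36, 9.08 and 7.86 in HR, against 10.12, 9.67, 9.17, 9.18 and 7.13 in LR. Array 1 was highest and array 5 lowest in both groups, and the difference was 0.28 ± 0.54 (limma, adjusted p = 0.879).

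Gene lists, counted with 1 transcript per gene, held at most 1 call each, beside 121 of 9386 genes (1.29%) over the whole array, 1.08% being lower in HR. The proteasome had the lowest median: of 21 genes measured, 2 had a positive difference, 1 was called lower, and the median was -0.61, against -0.01 for all transcripts and -0.17 for the highest of the 10 bins by level. The mean proteasome level was 9.13, 9.28, 9.71, 9.52 and 10.31 on HR arrays 1 to 5, against 10.03, 9.92, 10.26, 10.14 and 10.30 on LR arrays 1 to 5. HR array 5 was thus at the level of the highest LR array while the other HR arrays were below all of LR. Without HR array 5 the proteasome median was -0.77 and 9 members were called lower, where 4.08% of matched genes were. The list of glutathione, glyoxalase and detoxification genes had a median of -0.43 over 28 genes, with Prdx3 called. Its median was -0.51 without HR array 5, when Gpx1, Hagh and Prdx2 were called beside Prdx3. Respiratory chain genes had a median of -0.24 over 37 genes with Uqcrfs1 called, and -0.45 with 6 called without HR array 5. For heat shock proteins and chaperones the median was -0.23 over 27 genes with Hspa5 called, and -0.40 with 4 called without that array. HR array 5 was the highest HR array for each of these lists. No other array was left out for the lists. Over all transcripts, HR array 5 was the only HR or LR array whose omission raised the number of falls above 209. Leaving out any other of these arrays gave 79 to 157 falls.

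Lists of neuronal signalling genes had medians near that of all transcripts. None of the 27 glutamate receptor and scaffold genes, 20 GABA receptor and transport genes, 27 potassium channel genes or 27 monoamine genes was called, with medians of 0.05, -0.02, -0.04 and 0.05. The list of glucocorticoid receptors and response genes lay lower, with a median of -0.30 over 16 genes and no call. Its mean level was 7.03 to 7.24 on HR arrays and 7.31 to 7.52 on LR arrays. The median of this list was also -0.30 without HR array 5. Neuropeptides and their receptors had the highest median, 0.18 over 27 genes with no call. Among the cell type lists, astrocytes (16 genes, median -0.16), microglia (14 genes, -0.24), myelin and mature oligodendrocytes (14 genes, -0.18), endothelial cells and pericytes (13 genes, 0.16) and choroid plexus (14 genes, 0.05) had no called member. Nor had interneurons (13 genes, -0.20) or meninges and fibroblasts (12 genes, -0.31), the lowest median of these lists. Hippocampal neurons (11 genes, 0.10) had Neurod1 called, and blood cells (9 genes, -0.12) had S100a9. In bulk tissue fewer cells of a type and less RNA per cell cannot be told apart.

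**Figure D4:**
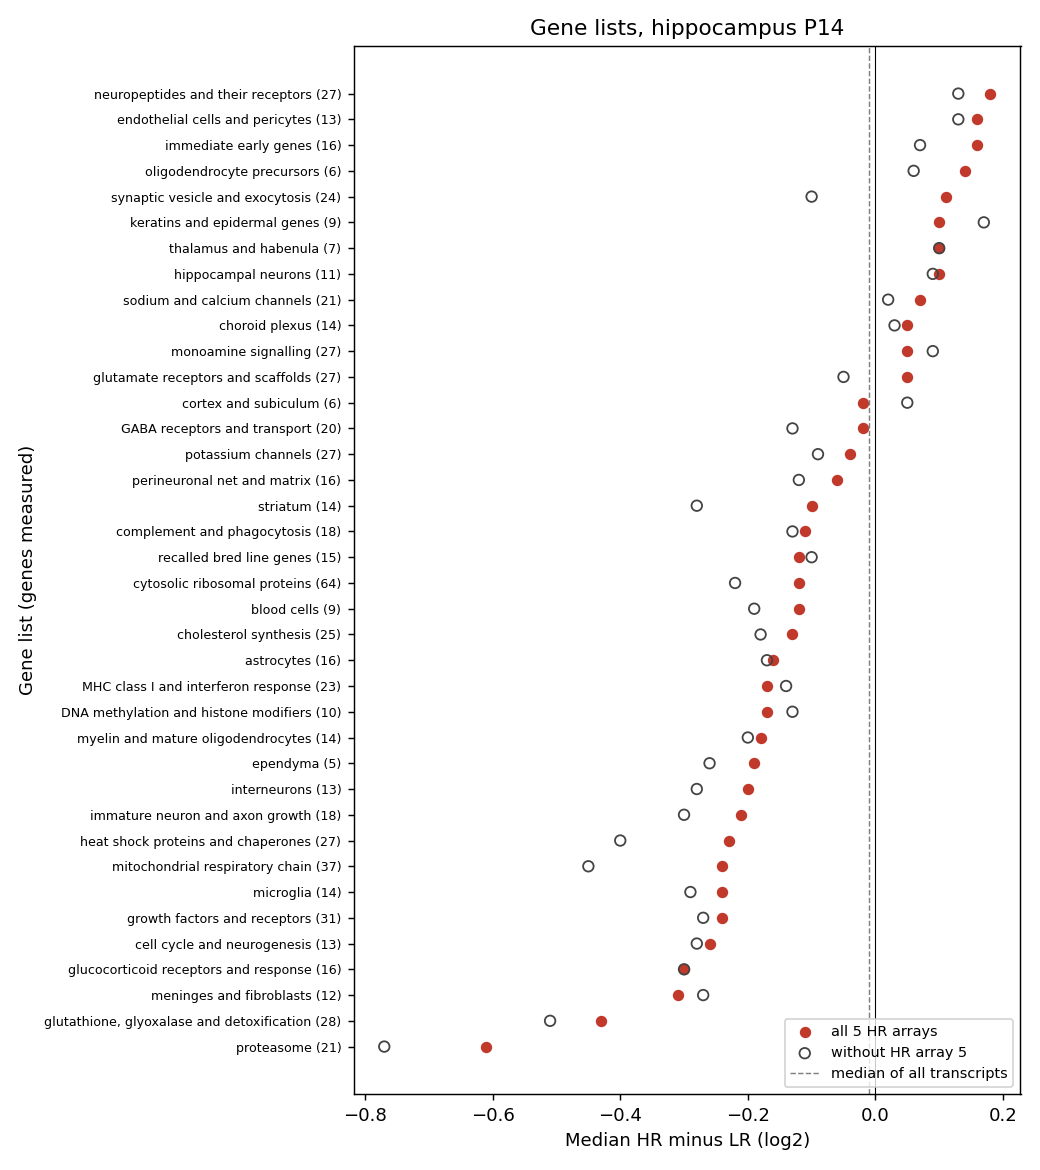
Median HR minus LR (log2) of each gene list at P14 in the hippocampus, with all 5 HR arrays (filled) and without HR array 5 (open); the dashed line is the median of all transcripts, -0.01. The proteasome lies lowest, at -0.61 and -0.77, and most lists lie within 0.3 of 0. No other array was left out for the lists.

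Whether the line difference of P14 was there at other ages was asked on separate arrays. In fits of 20 arrays per age, 38 of 25897 transcripts (0.147%) were called at P07, 0 at P21 and 13 (0.0502%) in adults. The calls at P07, in either direction, held 16 of the 507 rises and 2 of the 209 falls of P14. In adults they held 0 of these rises and 1 of these falls. At P21, 1763 transcripts had an unadjusted p under 0.05 by limma. The difference itself, P14 minus the mean of the other 3 ages, was called for 327 transcripts (1.26%), 228 of them positive (0.88%) and 99 negative (0.382%). Without the 5 LR-LR arrays of P21, which stood apart from each other, it was called for 587, 322 positive and 265 negative, and at P21 the calls stayed at 0, with 2836 transcripts at an unadjusted p under 0.05 by limma. The P14 arrays that chose the called transcripts enter this test, so its results for them are a description. It was passed by 213 of the 507 rises and 51 of the 209 falls. By that test Spetex2c had a P14 difference larger by 1.84 ± 0.32 (limma, adjusted p = 0.000229), Spetex2b by 1.47 ± 0.36 (adjusted p = 0.0151) and Spetex2f by 1.45 ± 0.32 (adjusted p = 0.0071). Spetex2c differed between HR and LR by 0.11 ± 0.25 at P07, -0.33 ± 0.32 at P21 and -0.27 ± 0.24 in adults. The test was not passed by 4930488N24Rikl (1.51 ± 0.43, adjusted p = 0.0545), which differed by 1.10 ± 0.35 at P07, nor by Spetex2d, Spetex2h and S100a9 (limma, adjusted p = 0.0728, 0.224 and 0.057). Among the falls, Brd8 (-1.62 ± 0.32, adjusted p = 0.00191) and Neurod1 (-1.43 ± 0.37, adjusted p = 0.0284) differed from the other ages. Zeb2 and Dnmt1 did not pass (limma, adjusted p = 0.225 and 0.264), and Zeb2 was lower in HR at P07 too, by -1.28 ± 0.25 (adjusted p = 0.0293).

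The transcripts that rose at P14 were followed across ages as a set, with their P14 levels given as a description because they chose the set. The 487 rises with no matched gene had a mean log2 level of 9.40 ± 0.12 in HR pups at P14 (SD, n = 5), with 8.39 ± 0.18 in LR-HR pups, 8.82 ± 0.11 in LR-LR pups and 8.03 ± 0.11 in LR pups. At P07 the set averaged 7.68 ± 0.12 in HR and 7.28 ± 0.13 in LR, and 391 of the 487 were higher in HR. The median difference was 0.40, beside -0.01 for all transcripts. Both fostered LR groups lay above HR at P07, at 7.79 ± 0.10 in LR-HR and 8.39 ± 0.05 in LR-LR. At P21 the set averaged 7.48 ± 0.20 in HR and 7.39 ± 0.30 in LR, with 7.76 ± 0.09 in LR-HR and 7.99 ± 0.46 in LR-LR. In adults the set averaged 7.55 ± 0.14 in HR and 7.62 ± 0.11 in LR. The set was thus higher at P14 than at other ages in both lines. Spetex2 genes followed the same course: they averaged 8.33 ± 0.18 in HR and 7.03 ± 0.19 in LR at P14, but 6.37 ± 0.30 in HR and 6.56 ± 0.16 in LR in adults.

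**Figure D5:**
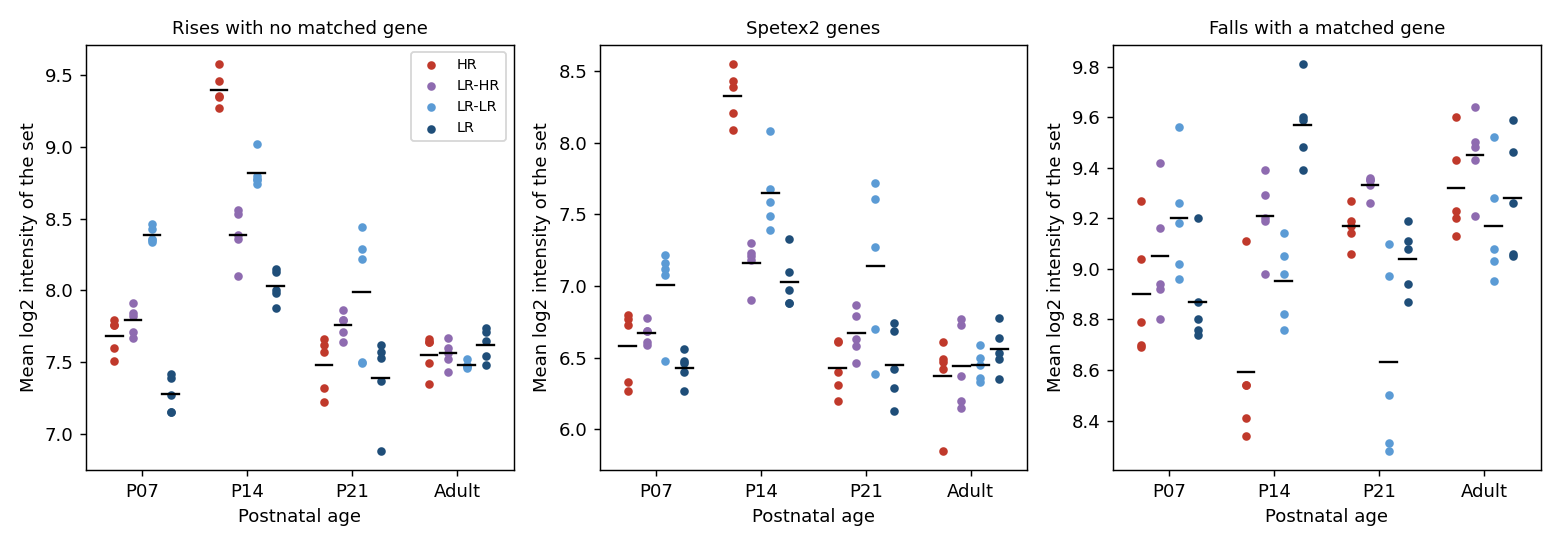
Mean log2 intensity of the 487 rises with no matched gene (left), the 7 Spetex2 genes (middle) and the 101 falls with a matched gene (right) by age, for HR, LR-HR, LR-LR and LR; points are arrays and bars are means of 5. HR and LR are furthest apart at P14, where they were chosen, and close in adults.

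Fostered LR pups came between HR and LR for most of the called transcripts. HR and LR arrays set both ends of that scale, so this is given side by side without a test. Of the 507 rises, the LR-HR mean lay between the HR and LR means for 447 and the LR-LR mean for 464. Of the 209 falls, the LR-HR mean lay between for 198 and the LR-LR mean for 183. Spetex2c averaged 8.54 ± 0.65 in HR pups (SD, n = 5 in each group), 7.32 ± 0.18 in LR-HR pups, 7.82 ± 0.51 in LR-LR pups and 6.87 ± 0.46 in LR pups. The 101 named falls averaged 8.59 ± 0.30 in HR pups, 9.21 ± 0.15 in LR-HR pups, 8.95 ± 0.16 in LR-LR pups and 9.57 ± 0.16 in LR pups. In both sets the LR-LR pups, fostered to their own line, were nearer to HR than the LR-HR pups were.

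The amygdala arrays of P14 answered whether the line difference was alike in both regions, and 5058 of 22197 transcripts (22.8%) were called there. Of the hippocampal rises, 499 had amygdalar values and 35 were called there, 29 higher and 6 lower in HR. Of the hippocampal falls, 206 had such values and 55 were called, 20 higher and 35 lower. The difference between regions, hippocampus minus amygdala, was called for 2782 of 22192 transcripts (12.5%), 1179 positive (5.31%) and 1603 negative (7.22%). The P14 hippocampal arrays that chose the genes below enter this test, so its results for them are a description. 4930488N24Rikl differed by 2.13 ± 0.23 between HR and LR in the hippocampus and by -0.03 ± 0.28 in the amygdala, and the difference between regions was 2.17 ± 0.36 (limma, adjusted p = 6.71e-05). The unmatched transcript XM_346138 was called the other way in the amygdala, at -0.86 ± 0.20 (limma, adjusted p = 0.00386). Its difference between regions was 3.49 ± 0.48 (limma, adjusted p = 5.21e-06). Spetex2c differed by -0.29 ± 0.37 in the amygdala, and its difference between regions was 1.96 ± 0.48 (limma, adjusted p = 0.00514). Neurod1 differed by 0.07 ± 0.29 in the amygdala (difference between regions -1.21 ± 0.35, adjusted p = 0.0175). Bdnf and Uqcrfs1 had amygdalar differences of -0.54 ± 0.25 and -0.52 ± 0.20, neither of them called there, and their differences between regions did not pass the test (limma, adjusted p = 0.531 and 0.25). Psma5 was called in both regions, at -0.75 ± 0.20 in the hippocampus and -0.69 ± 0.24 in the amygdala (limma, adjusted p = 0.0367 and 0.0437).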

How the data were processed

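The deposited values were linear intensities from 1-colour arrays, made by the authors with RMA (background correction, normalization and probe summary) per the submitters' processing notes, which give no version. The 2 regions carried different sets of transcripts, and no level was set against one of the other region. Here log2 was taken with no pseudocount and no filter, and the random control row was left out. Models with 1 mean per group used limma 3.58.1 and its eBayes step (R 4.3.3) on 20 arrays for the P14 line comparison, 80 for the ages and 40 for the regions. Benjamini-Hochberg adjustment ran over all transcripts, and all adjusted p-values come from limma. Scripts were tested on simulated data. The number of arrays limits the precision, and neither slide nor litter is named in the sources used here. Of 25902 identifiers 9506 matched a gene in RefSeq (GRCr8). Named were the 10 largest called rises and falls whose HR and LR arrays did not overlap, a panel of 8 genes, and up to 3 called members of each of 38 lists; 1 of the falls is not reported here. A list of genes recalled as differing between the lines, 15 measured, had Apln called and a median of -0.12. Members and lists were chosen with earlier results of these data known. The alternatives tried were other scalings, filters, variance models, a replicate block and leaving out arrays.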

Additional observations from a re-analysis of the deposited data

Results flagged for a closer look

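In 6 of 74 groups of 5 arrays, 1 array stood far from the other 4 by Dixon's criterion, which chance meets in about 1 of 20 groups. Or10al6 stood at 9.19 on HR array 1, against 7.58 to 7.78 on the other HR arrays. Spetex2e stood at 9.0 on HR array 3, against 8.31 to 8.44. Spetex2d stood at 7.47 and Bdnf at 7.54 on HR array 1, against 8.46 to 8.52 and 8.44 to 8.53. Crhr1 stood at 8.12 on LR array 4, and Dnmt1 at 9.96 on LR array 3.

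By limma the line difference at P14 exceeded the mean of the other ages, on the log2 scale, by 1.84 for Spetex2c, 1.20 for Spetex2g, 1.47 for Spetex2b, 1.45 for Spetex2e, 1.45 for Spetex2f and 1.32 for Phf1. It was below that mean for Brd8 (-1.62), Tfb2m (-1.48), Tcf12 (-1.51), Neurod1 (-1.43), Mtg2 (-1.19), Napa (-1.56), Uqcrfs1 (-1.19), Hspa5 (-1.32) and Apln (-1.38).

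The hippocampal minus the amygdalar line difference passed the test for 4930488N24Rikl (2.17), Spetex2c (1.96), Spetex2g (1.44), Spetex2b (1.73), Spetex2e (1.63), Spetex2f (1.28) and Or10al6 (1.68). It was negative for Brd8 (-1.62), Tfb2m (-1.47), Zeb2 (-1.32), Eif2b5 (-1.24), Tnfsf13 (-2.27), Neurod1 (-1.21), Mtg2 (-1.31), Napa (-1.47), Dnmt1 (-1.12), Hspa5 (-1.24) and Apln (-1.33). The P14 hippocampal arrays that chose these genes enter this test and that of the ages, so the values from both are a description.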

How the results depend on the processing

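Of 30 called named genes, 9 stayed past the threshold under every alternative run and 0 changed direction. The 716 calls numbered 469 to 1306 when 1 array was left out (rises 370 to 612, falls 79 to 694), the lowest without LR replicate 5 and the highest without HR replicate 5. The falls moved by over 1.5 times in 9 of these 20 settings, those of every HR or LR array but LR replicate 2. The P14 minus other ages count of 327 was 193 to 555 (positive 139 to 278, negative 48 to 277), with the lowest values without LR replicate 5 (193) and HR replicate 3 (204). With only the HR and LR arrays fitted there were 416 calls at P14, 46 of them falls, and for the regions 1663 calls, 869 of them negative. Falls numbered 347 with array weights, 337 among transcripts above the median level (162 negative calls for the ages), 489 without the arrays numbered 5 in all groups and 336 without HR and LR array 5; these 2 settings without arrays numbered 5 were chosen after seeing the data. Of the calls at P14 70.8% were rises; the share was 78% with median centring, 88.9% with only the HR and LR arrays, 53.2% with the replicate block, 52.3% without the arrays numbered 5 and 46.9% without HR replicate 5. Without the LR-LR arrays of P21, a setting also chosen after seeing the data, the ages gave 587 calls, 265 of them negative. The replicate block gave 1482 calls (789 rises, 693 falls) at P14 and 850 (476 positive, 374 negative) for the ages. Same-numbered HR and LR arrays deviated together at r of 0.09 to 0.40 and 9 of 10 correlated best with their own number, a hint from the data; as not every r exceeded 0.1 and no label ties the numbers to a litter, they were not taken as pairs. Directions of panel genes near 0 changed: Htr1a was 0.13 with array weights, 0.03 with quantile normalization and 0.31 under both settings without arrays numbered 5; Crhr1 was -0.01 under both. Leaving out 1 array, Htr1a ran from -0.18 to 0.27, Crhr1 from -0.14 to 0.21 and Fgf2 from -0.21 to 0.64. Apart from the construction of each setting, the cause was not tested.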

Other observations

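At P21 the LR-LR arrays split on the transcripts that rose in HR at P14. The mean log2 level of the 487 rises with no matched gene was 8.22, 8.29, 8.44, 7.50 and 7.49 on LR-LR arrays 1 to 5 of P21, while LR arrays of that age ran from 6.88 to 7.62. The 101 named falls were at 8.28, 8.31, 8.50, 9.10 and 8.97 on the same 5 LR-LR arrays, beside 8.87 to 9.19 in LR. The 7 Spetex2 genes averaged 7.61, 7.27, 7.72, 6.70 and 6.39 on these LR-LR arrays, and 6.13 to 6.74 in LR. Over the 60 hippocampal arrays of other ages, deviations from group means correlated with those of the Spetex2 mean at a median r of 0.24 for the 487 rises and -0.29 for the 101 named falls, beside 0.03 for all transcripts. Without the LR-LR arrays of P21 these values were 0.09, -0.19 and -0.03 over 55 arrays, so most of the first rested on those arrays. These arrays entered no comparison between HR and LR other than through the spread.

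Some called falls were as large as those described above but had overlapping arrays: Qdpr, which regenerates tetrahydrobiopterin, differed by -1.47 ± 0.32, Tomm20 of the mitochondrial import pore by -1.39 ± 0.31 and Tgfbr2, a receptor for transforming growth factor beta, by -1.35 ± 0.29 (limma, adjusted p = 0.00929, 0.0108 and 0.00741). Fabp7, chosen after its values were seen, a fatty acid binding protein of radial glia, averaged 12.85 ± 0.35 in HR and 13.74 ± 0.05 in LR (SD, n = 5 each; limma, adjusted p = 0.00969).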
